A study of Mus musculus with 8 samples.

Results

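The genes described here are the heat shock proteins and their cochaperones. They were chosen as the protein-coding genes of the count table whose symbols are those of the HSP70 (Hspa), small heat shock protein (Hspb), HSP90, J-domain (Dnaja, Dnajb, Dnajc) and CCT (Cct2 to Cct8) families, together with Hspd1, Hspe1, Hsph1, Bag1 to Bag6, Hsf1 and Hsf2. This gave 85 of the 25247 genes in the table. All 85 had at least 1 count, 72 had counts in every library, and 55 averaged above 10 CPM, the count scaled to the library total. Of the other matching genes of the mouse annotation, Hspa14, Dnajc5b and Dnajc5g were not analysed here. Cct6a, a subunit of the CCT ring, is typed as a processed transcript in that annotation and so fell outside the rule; its level lay between 163.1 and 230.4 CPM.

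Heat shock proteins are molecular chaperones that bind unfolded or partly folded proteins. HSP70 proteins work in cycles of ATP hydrolysis that J-domain proteins (Dnaja, Dnajb, Dnajc) start and that exchange factors (HSP110 and BAG proteins) end, and HSP90 and the CCT ring act on a narrower set of clients. Under heat or protein damage the factor HSF1 binds heat shock elements, which are inverted repeats of the unit GAA, and raises a subset of these genes, among which Hspa1a and Hspa1b are the classical inducible HSP70 genes, while Hspa8 encodes the constitutive one.

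The study measured bulk RNA of Langerhans cells, which are epidermal dendritic cells, after sorting from the ear skin of C57BL/6 mice. Wild-type (WT) and EZH2 -/- (KO) libraries numbered 4 each, and EZH2 is the histone methyltransferase of Polycomb repressive complex 2. All cells passed through the same protocol of dispase and collagenase digestion at 37 °C and sorting, and the labels name neither an age, a treatment nor the means by which the gene was deleted. A library code stands both in a sample's title and in its description, and the 2 disagree for 4 of the 8 libraries. By title code WT is RMN030, RMN031, RMN036 and RMN037, and KO is RMN032, RMN033, RMN038 and RMN039. By description code WT is RMN030 to RMN033 and KO is RMN036 to RMN039. The 4 undisputed libraries are RMN030 and RMN031 (WT) and RMN038 and RMN039 (KO). By description code, and in the undisputed libraries, genotype and the earlier or later block of codes cannot be told apart. The question put to the family was whether the libraries with later codes carried more of all heat shock genes or only of Hspa1a and Hspa1b.

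Library totals lay between 11051402 and 18966195 counts. Ezh2, the targeted gene, stood at 15.7, 22.4, 15.2 and 14.9 CPM in RMN030 to RMN033 and at 19.0, 17.6, 12.7 and 10.5 CPM in RMN036 to RMN039. KO lay below WT without overlap by title code and in the undisputed libraries, and the groups overlapped by description code. Ezh2 was called by neither code: its log2 fold change was -0.49 ± 0.18 by title code (SE, n = 4 each, adjusted p = 0.998) and -0.15 ± 0.22 by description code (adjusted p = 0.869, both edgeR quasi-likelihood). Langerhans cell markers summed to 89350 to 115800 CPM in the 8 libraries. The groups of that sum overlapped by both codes and not in the undisputed libraries (99980 to 115800 in WT, 96690 to 99820 in KO). Of the markers, 0 of 11 were called in the undisputed libraries, by title code or by description code. Of all genes tested 0.794%, 0% and 2.02% were called, so 0 calls do not show an equal content of these cells.

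Hspa1a and Hspa1b lie side by side on the minus strand of chromosome 17 (GRCm38), Hspa1a from 34969190 to 34972156 and Hspa1b from 34956436 to 34959238, each as a single exon. Their promoters are shown because the members that moved together are these neighbours: the 250 bases before each start (RefSeq, GRCm38.p6, minus strand, chr17:34972157-34972406 and chr17:34959239-34959488) differ at 3 positions. Capitals mark an inverted pair of heat shock units, 104 to 97 bases before the start in both.
Hspa1a: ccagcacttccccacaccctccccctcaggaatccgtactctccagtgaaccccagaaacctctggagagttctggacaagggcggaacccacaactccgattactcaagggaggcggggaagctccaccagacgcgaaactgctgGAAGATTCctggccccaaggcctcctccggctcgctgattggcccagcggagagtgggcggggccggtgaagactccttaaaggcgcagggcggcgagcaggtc
Hspa1b: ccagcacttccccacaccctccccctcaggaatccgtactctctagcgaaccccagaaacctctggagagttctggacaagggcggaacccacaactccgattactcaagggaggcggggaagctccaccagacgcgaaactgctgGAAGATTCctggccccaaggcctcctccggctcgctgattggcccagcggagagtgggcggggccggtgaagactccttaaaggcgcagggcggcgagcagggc
For comparison, the window before Hspe1, the mitochondrial cochaperonin gene that shares a divergent promoter with Hspd1, held 3 overlapping pairs in 18 bases, 89 to 72 bases before its start (chr1:55088059-55088076, plus strand). These bases also lie in an annotated first exon of Hspd1.
Hspe1: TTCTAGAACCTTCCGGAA

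The search covered 2 motifs in the 250 bases before a start. The pair was GAANNTTC or TTCNNGAA, where N is any base. The triplet was a pair continued, after NN, by 1 more unit in alternating direction (GAA after a pair that ends in TTC, and TTC after one that ends in GAA). These forms cover both strands, and a triplet contains pairs. Of the 85 members, 69 had a window in the RefSeq table. A pair stood in 19 of their 89 windows (21.3%), against 12.8% of the 32851 windows of all genes. A triplet stood in 4 of them, belonging to Dnajb6, Hspd1 and Hspe1, against 0.466% of all windows. Windows can overlap, so a site can be counted more than once. A window of Hspd1 and the window of Hspe1 both contain the Hspe1 stretch shown above. Hspb1 held pairs in its window, and Hsph1 held a pair in both of its windows, which overlap. Dnaja1 and Dnajb4 held a pair in some of their windows and not in others. So did Cct5 and Hspb6, and Dnajc27 held a pair in its window. Cct5, Hspb6 and Dnajc27 are not on the list of heat shock response genes described below. In all, 17 members held a pair in a window. The windows of Dnajb1, Bag3 and Hspa4l held neither motif. Hspa8, Hsp90aa1 and Hsp90ab1 had no window in the RefSeq table. A match is a description of the letters and not of a bound site.

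Levels between genes are compared here in RPKM, the CPM divided by the exon length in kilobases. Hspa8, the constitutive cytosolic HSP70, led with a mean of 890.9 RPKM over the 8 libraries. It was followed by Hsp90ab1, the constitutive cytosolic HSP90 (499.1), and Hspa5, the HSP70 of the endoplasmic reticulum also called BiP (364.3). Hspa1a was next with 348.7 and then Hspa1b with 301.6, ranging from 205.1 to 510.1 and from 176.6 to 440.5 RPKM. The small heat shock protein gene Hspb1 followed with 164.4 RPKM. All members together made up 1.32% to 1.57% of the counts of a library.

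Hspa1a stood at 706.4, 628.0, 608.5 and 658.9 CPM in the earlier codes (RMN030 to RMN033, in order). It stood at 1311, 1342, 1509 and 1513 CPM in the later codes (RMN036 to RMN039). Every library with a later code lay above every library with an earlier code, without overlap. Hspa1b stood at 584.9, 520.8, 495.0 and 544.5 CPM in RMN030 to RMN033. It stood at 1061, 1097, 1235 and 1225 CPM in RMN036 to RMN039, so that the same 4 libraries were high.

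**Figure D1:**
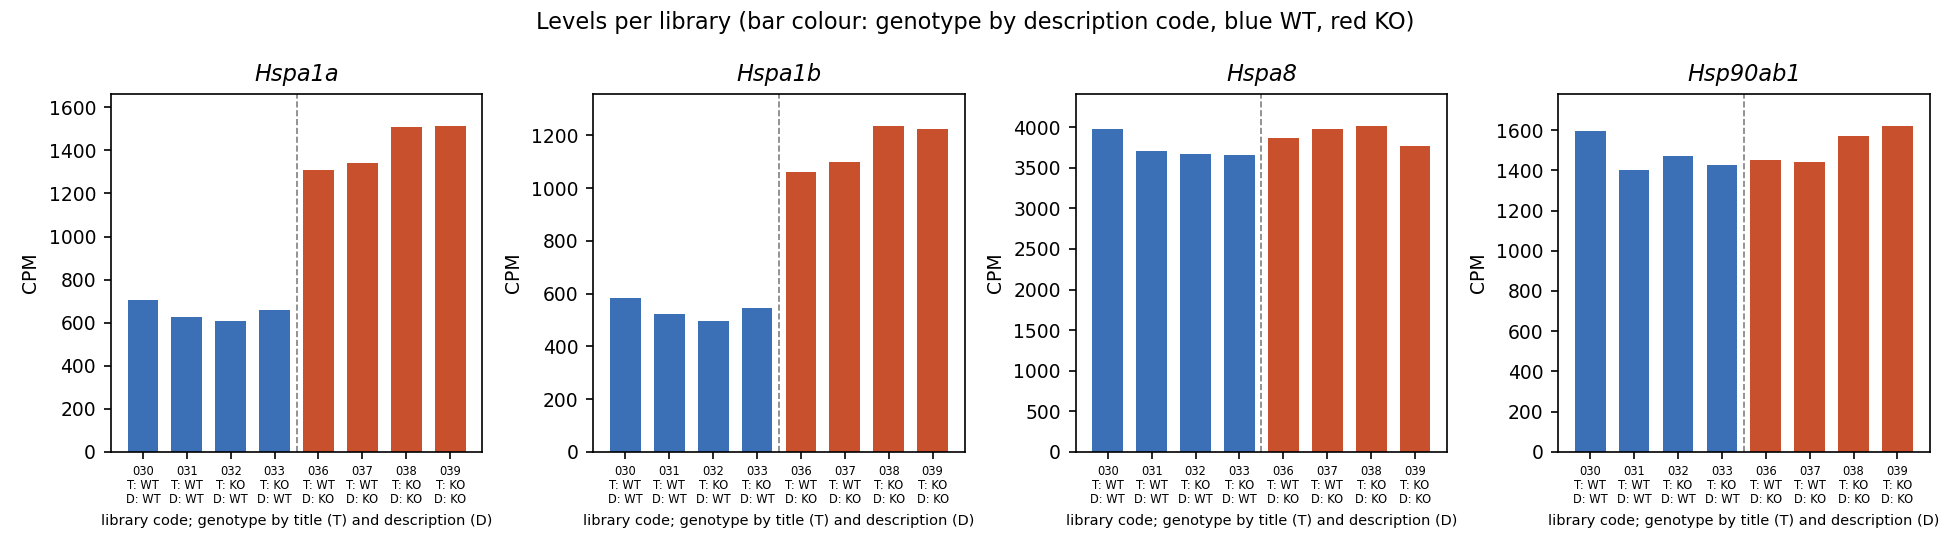
CPM (y axis, from 0) of Hspa1a, Hspa1b, Hspa8 and Hsp90ab1 in each library (x axis, with the genotype by title and by description code); the bars are single libraries, coloured by description code. The Hspa1a bars lie between 608.5 and 706.4 CPM left of the dashed line and between 1311 and 1513 right of it, while the Hspa8 bars lie between 3657 and 4014 throughout.

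By description code, the 4 WT libraries averaged 650.5 ± 42.7 CPM of Hspa1a (SD) and the 4 KO libraries 1419 ± 108, and for Hspa1b 536.3 ± 38.2 and 1154 ± 88. Both were higher in the libraries this code calls KO: the edgeR log2 fold change was 1.17 ± 0.09 for Hspa1a (SE, adjusted p = 1.2e-05) and 1.15 ± 0.09 for Hspa1b (adjusted p = 1.68e-05), or 2.25-fold and 2.21-fold. They were the 2 members called of 72 tested by description code, where 2.02% of all genes tested were called. Ordered by p, they ranked 7 and 8 of the 14630 genes. The question named this pair and the later codes with earlier results of these data known. The p-values and ranks of the pair by description code and in the undisputed libraries are therefore descriptive and no independent support.

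In the undisputed libraries the log2 fold change was 1.22 ± 0.13 for Hspa1a (SE, n = 2 each, edgeR adjusted p = 0.000865) and 1.20 ± 0.13 for Hspa1b (adjusted p = 0.00104). These were again the 2 called of 73 members tested, beside 0.794% of all genes. Without RMN031 the WT group was RMN030 alone. The log2 fold changes of Dnajb9, Dnaja1, Hsp90aa1 and Cct4 were then 1.14, 0.53, 0.50 and 0.44. RMN030 had the lowest CPM of all libraries for each of these genes. The undisputed libraries are a subset of both readings, so this comparison shares its samples with them. By title code neither gene was called: the 4 WT libraries averaged 997 ± 382 CPM of Hspa1a (SD) and the 4 KO libraries 1072 ± 507, with overlapping groups, and its log2 fold change was 0.11 ± 0.43 (SE, edgeR adjusted p = 0.998, 95% interval -0.89 to 1.11). With limma voom it was -0.09 (adjusted p = 0.985). By title code 0 of 72 members were called, and of all genes tested 0% were called. At an unadjusted p under 0.05, 672 of all genes passed by title code, and DESeq2 also called 0 members.

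The title code puts 2 libraries of each genotype into each block of codes, which allows values within a block. Among the earlier codes the log2 fold change of Hspa1a was -0.11 ± 0.13 (SE, n = 2 each, edgeR adjusted p = 0.89), and among the later codes 0.22 ± 0.05 (adjusted p = 0.49). Among the later codes the KO libraries lay above the WT libraries without overlap, at 1509 and 1513 against 1311 and 1342 CPM. In 2 against 2 libraries the smallest exact permutation p is 0.333, and the share of all genes so separated was not counted. The difference between these contrasts was 0.34 ± 0.14 for Hspa1a and 0.35 ± 0.14 for Hspa1b (SE, unadjusted p = 0.0333 and 0.0309, adjusted p = 0.574 and 0.568). None of the 73 members tested for that difference was called, against 0.0186% of all genes; 1281 of all genes had an unadjusted p under 0.05 and DESeq2 also called 0 members. With the block of codes as a covariate the title contrast of Hspa1a was 0.05 ± 0.09, and with the title genotype as a covariate the contrast between the blocks was 1.16 ± 0.09 (adjusted p = 1.66e-05).

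The sum of the pair was 1291, 1149, 1103 and 1203 CPM in RMN030 to RMN033 and 2372, 2438, 2744 and 2738 CPM in RMN036 to RMN039. By description code the sum was 2.17-fold higher in KO (exact two-sided permutation test, p = 0.0286, the smallest that 4 against 4 libraries allow). The pair and this split were chosen with earlier results of these libraries known, so that p adds no independent support. By title code it was 1.07-fold higher (exact permutation p = 0.629), a direction that turned when RMN030, RMN031, RMN038 or RMN039 was left out. In the undisputed libraries it was 2.25-fold higher (exact permutation p = 0.333, the smallest that 2 against 2 libraries allow).

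The transcripts are near copies, and 58.8% of the 50-base stretches of the Hspa1a transcript also occur in that of Hspa1b, so counts of each are uncertain where reads fit both. How such reads were treated is not given in the sources used here. Of the exon bases of Hspa1a, 19.0% also lie in exons of Gm20481, a gene model annotated on the opposite strand, and with no strand setting given their reads cannot be told apart. The ratio of Hspa1a to Hspa1b counts stayed between 1.21 and 1.24 in all 8 libraries.

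Other measures of the libraries moved with the later codes. Mitochondrially encoded genes took 1.02% to 1.87% of counts in RMN030 to RMN033 and 3.76% to 4.03% in RMN036 to RMN039. The 5 blood markers summed to 122.4 to 226.4 and then 580.2 to 1355 CPM, the 7 fibroblast markers to 37.0 to 62.9 and then 119.5 to 199.2 CPM, and the 6 mast cell markers to 31.1 to 43.3 and then 46.2 to 65.6 CPM. By description code 5 of 5 tested blood, 4 of 6 fibroblast and 4 of 5 mast cell markers were called higher in KO, and none of these markers was at 0 in all libraries. The 12 keratinocyte markers overlapped between the blocks (15850 to 20480 and 16080 to 18660 CPM), as did the 8 of monocytes and macrophages (464.4 to 599.8 and 584.5 to 622.3 CPM). By description code 2 of 11 tested keratinocyte markers were called higher and 2 lower in KO, and 3 of 8 monocyte and macrophage markers higher and 1 lower. The share of all genes called by that code was 2.02%. The 12 T cell markers summed to 267.4 and 253.4 CPM in RMN030 and RMN031 and to 3.90 to 8.94 CPM elsewhere, with 8 of the 12 at 0 in at least 1 library. The part of these cells and of RNA quality in the difference of the pair was not tested. In bulk samples a change in the cells present and a change in RNA per cell cannot be told apart. With RMN030 and RMN031 left out, the log2 fold change of Hspa1a by description code was 1.22 ± 0.10 (SE, n = 2 and 4, edgeR adjusted p = 0.000187). The libraries left still differed in the mitochondrial share and in the blood, fibroblast and mast cell sums. This fit therefore does not test the part of these cells.

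None of the other members passed the test by description code with edgeR and all 8 libraries, and their sum, of which Hspa8 is the largest part, varied little. Without the pair, the members summed to between 12010 and 12980 CPM in all 8 libraries, a 1.08-fold range, while the pair covered a 2.49-fold range. That sum without the pair was 12100, 12130, 12090 and 12010 CPM in RMN030 to RMN033. It was 12120, 12320, 12980 and 12370 CPM in RMN036 to RMN039. Its groups overlapped by description code (1.03-fold higher in KO) and by title code (1.02-fold) and not in the undisputed libraries (1.05-fold). This sum was not tested. The share of the pair in the CPM of the family was 8.36% to 9.64% in the earlier codes and 16.4% to 18.1% in the later codes. By description code the median log2 fold change of the 70 other members tested was 0.03, beside -0.01 over all genes. Single members went both ways, 40 above and 30 below 0, from -0.53 for Dnajc18 to 1.23 for Dnajb13, and 11 of the 70 had an unadjusted p under 0.05, beside 1848 of the 14630 genes tested. It was 0.05 over 71 members in the undisputed libraries and 0.01 over 70 by title code, beside 0.00 over all genes in both.

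**Figure D2:**
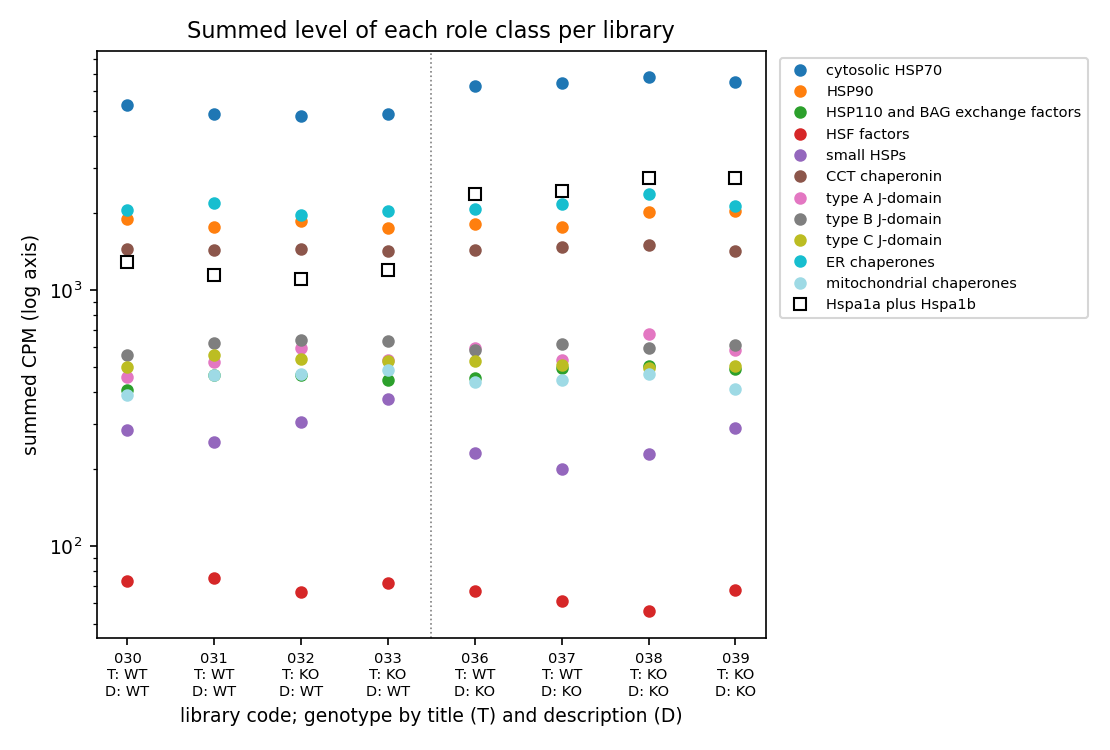
Summed CPM (y axis, log scale) of each role class and of Hspa1a plus Hspa1b (open squares) in each library (x axis, with both genotype readings); each point is 1 library. The pair moves from between 1103 and 1291 CPM to between 2372 and 2744 CPM, and the cytosolic HSP70 class that contains it from between 4817 and 5301 to between 6263 and 6786 CPM.

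The intervals set a limit only on rises as large as that of the pair, and smaller rises remain within them. They are 95% intervals of single genes, not adjusted for the number of members. By description code, the 95% intervals of the pair began at 0.95, and 65 of the other 70 members had an upper bound below that. The 5 others, Bag2, Dnajb13, Dnajc25, Hspb11 and Hspb6, had mean levels under 10 CPM and wide intervals. In the undisputed libraries 56 of 71 had an upper bound below the lower bound of the pair (0.91). Of the 15 others there, Dnajb9, Hsph1, Bag4 and Dnajc16 averaged above 10 CPM (70.0, 29.8, 16.7 and 13.1), so the limit does not hold for them. Among the 22 members above 100 CPM, none outside the pair varied as much over the 8 libraries: the coefficient of variation was 40.4% for Hspa1a and 39.8% for Hspa1b, and 3.87% to 22.9% for the others. The pair was named with earlier results of these data known. These contrasts of interval and spread are therefore descriptive and no independent support.

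Hspa8 stood at 3984, 3710, 3675 and 3657 CPM in RMN030 to RMN033 and at 3866, 3980, 4014 and 3767 CPM in RMN036 to RMN039. The blocks overlapped, and its log2 fold change by description code was 0.10 (95% interval -0.05 to 0.25, edgeR adjusted p = 0.634). The ratio of the pair to Hspa8 was 0.300 to 0.329 in the earlier codes and 0.613 to 0.727 in the later codes. Hspa2, an HSP70 gene best known from testis, stood at 14.8 to 28.1 CPM. Hspa1l, the third gene of the cluster on chromosome 17, stayed under 1.2 CPM in every library and was not tested.

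With all libraries of a comparison, the HSP90 genes passed the test in none. Hsp90aa1, the inducible cytosolic HSP90, stood at 313.1, 369.3, 391.6 and 332.5 CPM in RMN030 to RMN033 and at 362.0, 325.6, 452.8 and 421.6 CPM in RMN036 to RMN039. The 2 libraries that both codes call KO, RMN038 and RMN039, were the highest, and RMN036 and RMN037 lay among the earlier codes. Its log2 fold change was 0.40 ± 0.14 in the undisputed libraries (SE, edgeR adjusted p = 0.268), 0.22 ± 0.11 by title code (0.998) and 0.20 ± 0.11 by description code (0.51). Hsp90ab1 ranged from 1401 to 1620 CPM with overlapping groups in all comparisons.

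Among the exchange factors, which release ADP from HSP70, Bag3 is itself induced by heat shock. It stood at 87.1, 82.1, 78.4 and 86.1 CPM in RMN030 to RMN033 and at 104.5, 88.8, 113.5 and 105.7 CPM in RMN036 to RMN039. The blocks did not overlap, but the gap between RMN030 and RMN037 was narrow. Its log2 fold change by description code was 0.35 ± 0.11 (SE, n = 4 each, edgeR adjusted p = 0.147), past the threshold only with DESeq2 (adjusted p = 0.0392). Hsph1, the inducible HSP110, stood at 22.1, 30.9, 26.5 and 27.9 CPM and then at 30.9, 35.0, 39.8 and 25.6 CPM, with overlap. Hspa4l, an HSP110 gene, was low in RMN036 and RMN037 (29.4 and 25.7 CPM) and high in RMN038 and RMN039 (46.1 and 54.7 CPM), a contrast within the later codes that follows the title genotype. The difference of its title contrast between blocks was 0.97 ± 0.29 (SE, unadjusted p = 0.00719, edgeR adjusted p = 0.427).

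Hsf1, the master factor of the heat shock response, stood at 60.9 to 71.0 CPM in the earlier codes and 49.2 to 63.4 CPM in the later codes. Hsf2, a related factor, stayed between 2.58 and 6.89 CPM. Neither passed the test in any comparison, and transcript levels do not report the activity of HSF1, which is set after translation.

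With edgeR after its expression filter and all libraries of a comparison, no J-domain gene passed the test, while DESeq2 called Dnajc14 and Dnajb9 as given with their values. Dnajb1, the inducible partner of HSP70 also called HSP40, stood at 178.4 and 182.0 CPM in RMN030 and RMN031, 212.3 and 225.0 in RMN032 and RMN033, 189.5 and 189.3 in RMN036 and RMN037, and 220.8 and 222.0 in RMN038 and RMN039. Its 4 KO libraries by title code all lay above its 4 WT libraries, and the description groups overlapped. By title code the WT mean was 184.8 ± 5.5 CPM and the KO mean 220.0 ± 5.5 (SD, 4 libraries each), and the log2 fold change was 0.25 ± 0.08 (SE, edgeR unadjusted p = 0.0114, adjusted p = 0.998). Dnaja1, a J-domain partner of type A, stood at 302.8 to 395.3 CPM in the earlier codes and 375.1 to 464.5 CPM in the later codes. Its log2 fold change by description code was 0.27 ± 0.09 (SE, edgeR adjusted p = 0.2). Dnajb4, a type B protein on the heat shock response list, stood at 43.8, 64.3, 86.3 and 54.9 CPM and then at 53.9, 54.5, 67.1 and 65.9 CPM, with overlap by both codes. Dnaja2, of type A, had 0.13 ± 0.10 (adjusted p = 0.685).

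Members whose groups did not overlap were few. By title code they were Dnajb1 (KO above) and Dnajc15 (KO below), 2 of 72 or 2.78%, beside 2.94% of all genes tested. Dnajc15, a J-domain protein of the mitochondrial import motor, had a WT mean of 7.59 ± 1.04 CPM and a KO mean of 5.58 ± 0.73 (SD, 4 libraries each). By description code they were Hspa1a, Hspa1b, Bag3 and Dnajb13 (KO above) and Dnajb5 and Dnajc14 (KO below), 6 of 72 or 8.33%, beside 8.82% of all genes tested. These shares are near those of all genes.

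Of those, Dnajc14, a membrane J-domain protein of type C, stood at 89.0, 95.2, 70.3 and 81.2 CPM in RMN030 to RMN033 and at 59.2, 63.5, 61.0 and 51.6 CPM in RMN036 to RMN039. Its log2 fold change was -0.47 ± 0.12 by description code (SE, n = 4 each, edgeR adjusted p = 0.0723) and -0.66 ± 0.18 in the undisputed libraries (adjusted p = 0.158). It passed the threshold with DESeq2 by description code (adjusted p = 0.0128) and in the undisputed libraries (adjusted p = 0.0382), where it also passed in edgeR with no filter (adjusted p = 0.0389). Of its exon bases, 19.9% lie in exons of other annotated genes. Dnajb5, of type B, stood at 29.7 to 43.0 CPM in the earlier codes and 25.2 to 29.3 CPM in the later codes (log2 fold change -0.46 ± 0.15, adjusted p = 0.184). Dnajb13, known from sperm flagella and cilia, stood at 2.67, 3.02, 0.797 and 2.16 CPM in RMN030 to RMN033 and at 4.10, 5.69, 5.11 and 4.89 CPM in RMN036 to RMN039. By description code its log2 fold change, 1.23 ± 0.40 (SE, 95% interval 0.37 to 2.09, edgeR adjusted p = 0.163), was above those of the pair and did not pass the test. Dnajc27, a type C protein, lay between 3.09 and 10.3 CPM with overlap by both codes.

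A list of genes of the heat shock response held 14 members, among them the mainly constitutive Hspa8 and Hsp90ab1. Besides the pair, 0 of the other 12 were called in the undisputed libraries, by title code or by description code. Of all genes tested, 0.794%, 0% and 2.02% were called, shares that leave little room for a call among 12 genes. Of these 12, 11 had a log2 fold change above 0 in each of the 3 comparisons, with medians of 0.35, 0.14 and 0.14. Over all genes tested, 7333 of 14727, 7220 of 14630 and 7147 of 14630 were above 0. With 1 library left out, the number above 0 was 10 to 12 in the undisputed libraries, 8 to 11 by title code and 9 to 11 by description code. With limma voom it was 11, 9 and 10 of 12. The median fell to 0.21 in the undisputed libraries without RMN030, and without RMN038 to 0.05 by title code and 0.09 by description code. Within the earlier codes 7 of 12 were above 0 by title code (median 0.03), and within the later codes 11 of 12 (median 0.23). The description contrast and the title contrast use the same 8 libraries and are not independent. The summed CPM of the 12 was 6505 to 6821 in the earlier codes and 6726 to 7248 in the later codes, and the ranges overlapped. Hspa8 made up most of that sum. Without Hspa8 the sum was 2837, 2795, 2980 and 2887 CPM in RMN030 to RMN033 and 2861, 2760, 3233 and 3180 CPM in RMN036 to RMN039. The groups of that sum overlapped by description code (1.05-fold higher in KO) and did not overlap by title code (2760 to 2861 in WT and 2887 to 3233 in KO, 1.09-fold higher) or in the undisputed libraries (1.14-fold higher). Its largest part was Hsp90ab1, at 1401 to 1620 CPM with overlapping groups. The sum was not tested. By title code 2.94% of all genes tested did not overlap. In 2 against 2 libraries the smallest exact permutation p is 0.333.

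**Figure D3:**
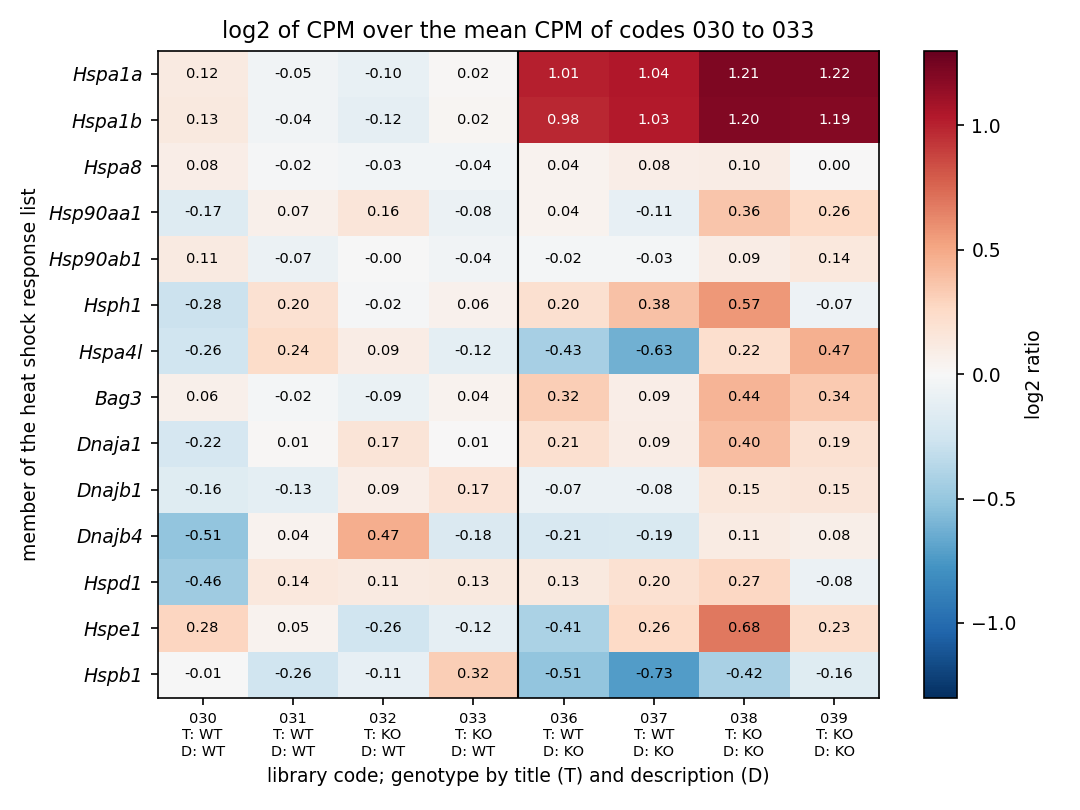
Log2 ratio of CPM in each library (columns, with both genotype readings) to the mean of RMN030 to RMN033, for the 14 members of the heat shock response list (rows); red is above and blue below that mean. Hspa1a and Hspa1b range from 0.98 to 1.22 in the later codes, and no other row exceeds 0.68.

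Hspb1, the small heat shock protein HSP27, went the other way in value. It stood at 194.1, 162.6, 180.8 and 243.3 CPM in RMN030 to RMN033 and at 137.1, 117.7, 145.6 and 174.7 CPM in RMN036 to RMN039, with overlap. Its log2 fold change by description code was -0.40 ± 0.14 (SE, edgeR adjusted p = 0.222), while by title code it was 0.27 ± 0.17 (adjusted p = 0.998). Hspb8, which pairs with Bag3 in the disposal of misfolded proteins, had 0.42 ± 0.14 by title code (unadjusted p = 0.0101, adjusted p = 0.998) and -0.21 ± 0.17 by description code. Hspb6, a small heat shock protein of muscle, had -0.92 ± 0.41 by title code (unadjusted p = 0.0448, adjusted p = 0.998) at 1.27 to 9.95 CPM. Keratinocytes also express Hspb1, the keratinocyte markers overlapped between the blocks, and their part in its values was not tested.

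The members that encode subunits of the CCT ring, which folds actin and tubulin, are Cct2, Cct3, Cct4, Cct5, Cct7 and Cct8. With the related Cct6b and Cct8l1, which averaged 0.05 and 0.01 CPM, they formed the role class with the smallest spread of the 11, a coefficient of variation of 1.79% of its summed CPM over the 8 libraries. The ring subunit genes Tcp1 and Cct6a are not members and not in that sum. The 8 members summed to between 1429 and 1501 CPM. Of 6 tested, 0 were called in the undisputed libraries, by title code or by description code. The shares of all genes called were 0.794%, 0% and 2.02%, which leave little room for a call among 6 genes. Cct4 had the largest log2 fold change of the class, 0.32 ± 0.14 in the undisputed libraries (SE, edgeR adjusted p = 0.433) and 0.19 ± 0.09 by description code (0.364). Cct3 had the lowest, -0.23 ± 0.14 in the undisputed libraries, and Cct5 and Cct8 stayed between -0.04 and 0.11 in the 3 comparisons.

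In the endoplasmic reticulum Hspa5 stood at 1528, 1581, 1390 and 1463 CPM in RMN030 to RMN033 and at 1480, 1585, 1719 and 1580 CPM in RMN036 to RMN039, with overlap. Hsp90b1, its HSP90 partner also called GRP94, had a log2 fold change of 0.19 ± 0.08 by description code (SE, edgeR adjusted p = 0.343). Dnajb9, a J-domain cofactor of Hspa5 induced by the unfolded protein response, stood at 43.4, 70.2, 74.7 and 56.3 CPM in RMN030 to RMN033 and at 66.2, 60.1, 104.1 and 85.1 CPM in RMN036 to RMN039, with overlap by both codes. Its log2 fold change was 0.78 ± 0.23 in the undisputed libraries (SE, adjusted p = 0.198) and 0.41 ± 0.19 by description code (adjusted p = 0.387). In the undisputed libraries it passed the threshold with DESeq2 (adjusted p = 0.0457) and in edgeR with no filter (adjusted p = 0.0081). Its log2 fold change was 1.14 without RMN031, which leaves RMN030, its lowest library, alone as WT. It was 0.91 without RMN039, which leaves RMN038, its highest library, alone as KO. In the mitochondrion, Hspd1 and Hspe1, the chaperonin and its lid, had 0.18 ± 0.13 and 0.28 ± 0.28 by description code (adjusted p = 0.639 and 0.756). Neither passed the test in any comparison. Dnaja3, a mitochondrial J-domain protein, had -0.27 ± 0.14 (adjusted p = 0.462).

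**Figure D4:**
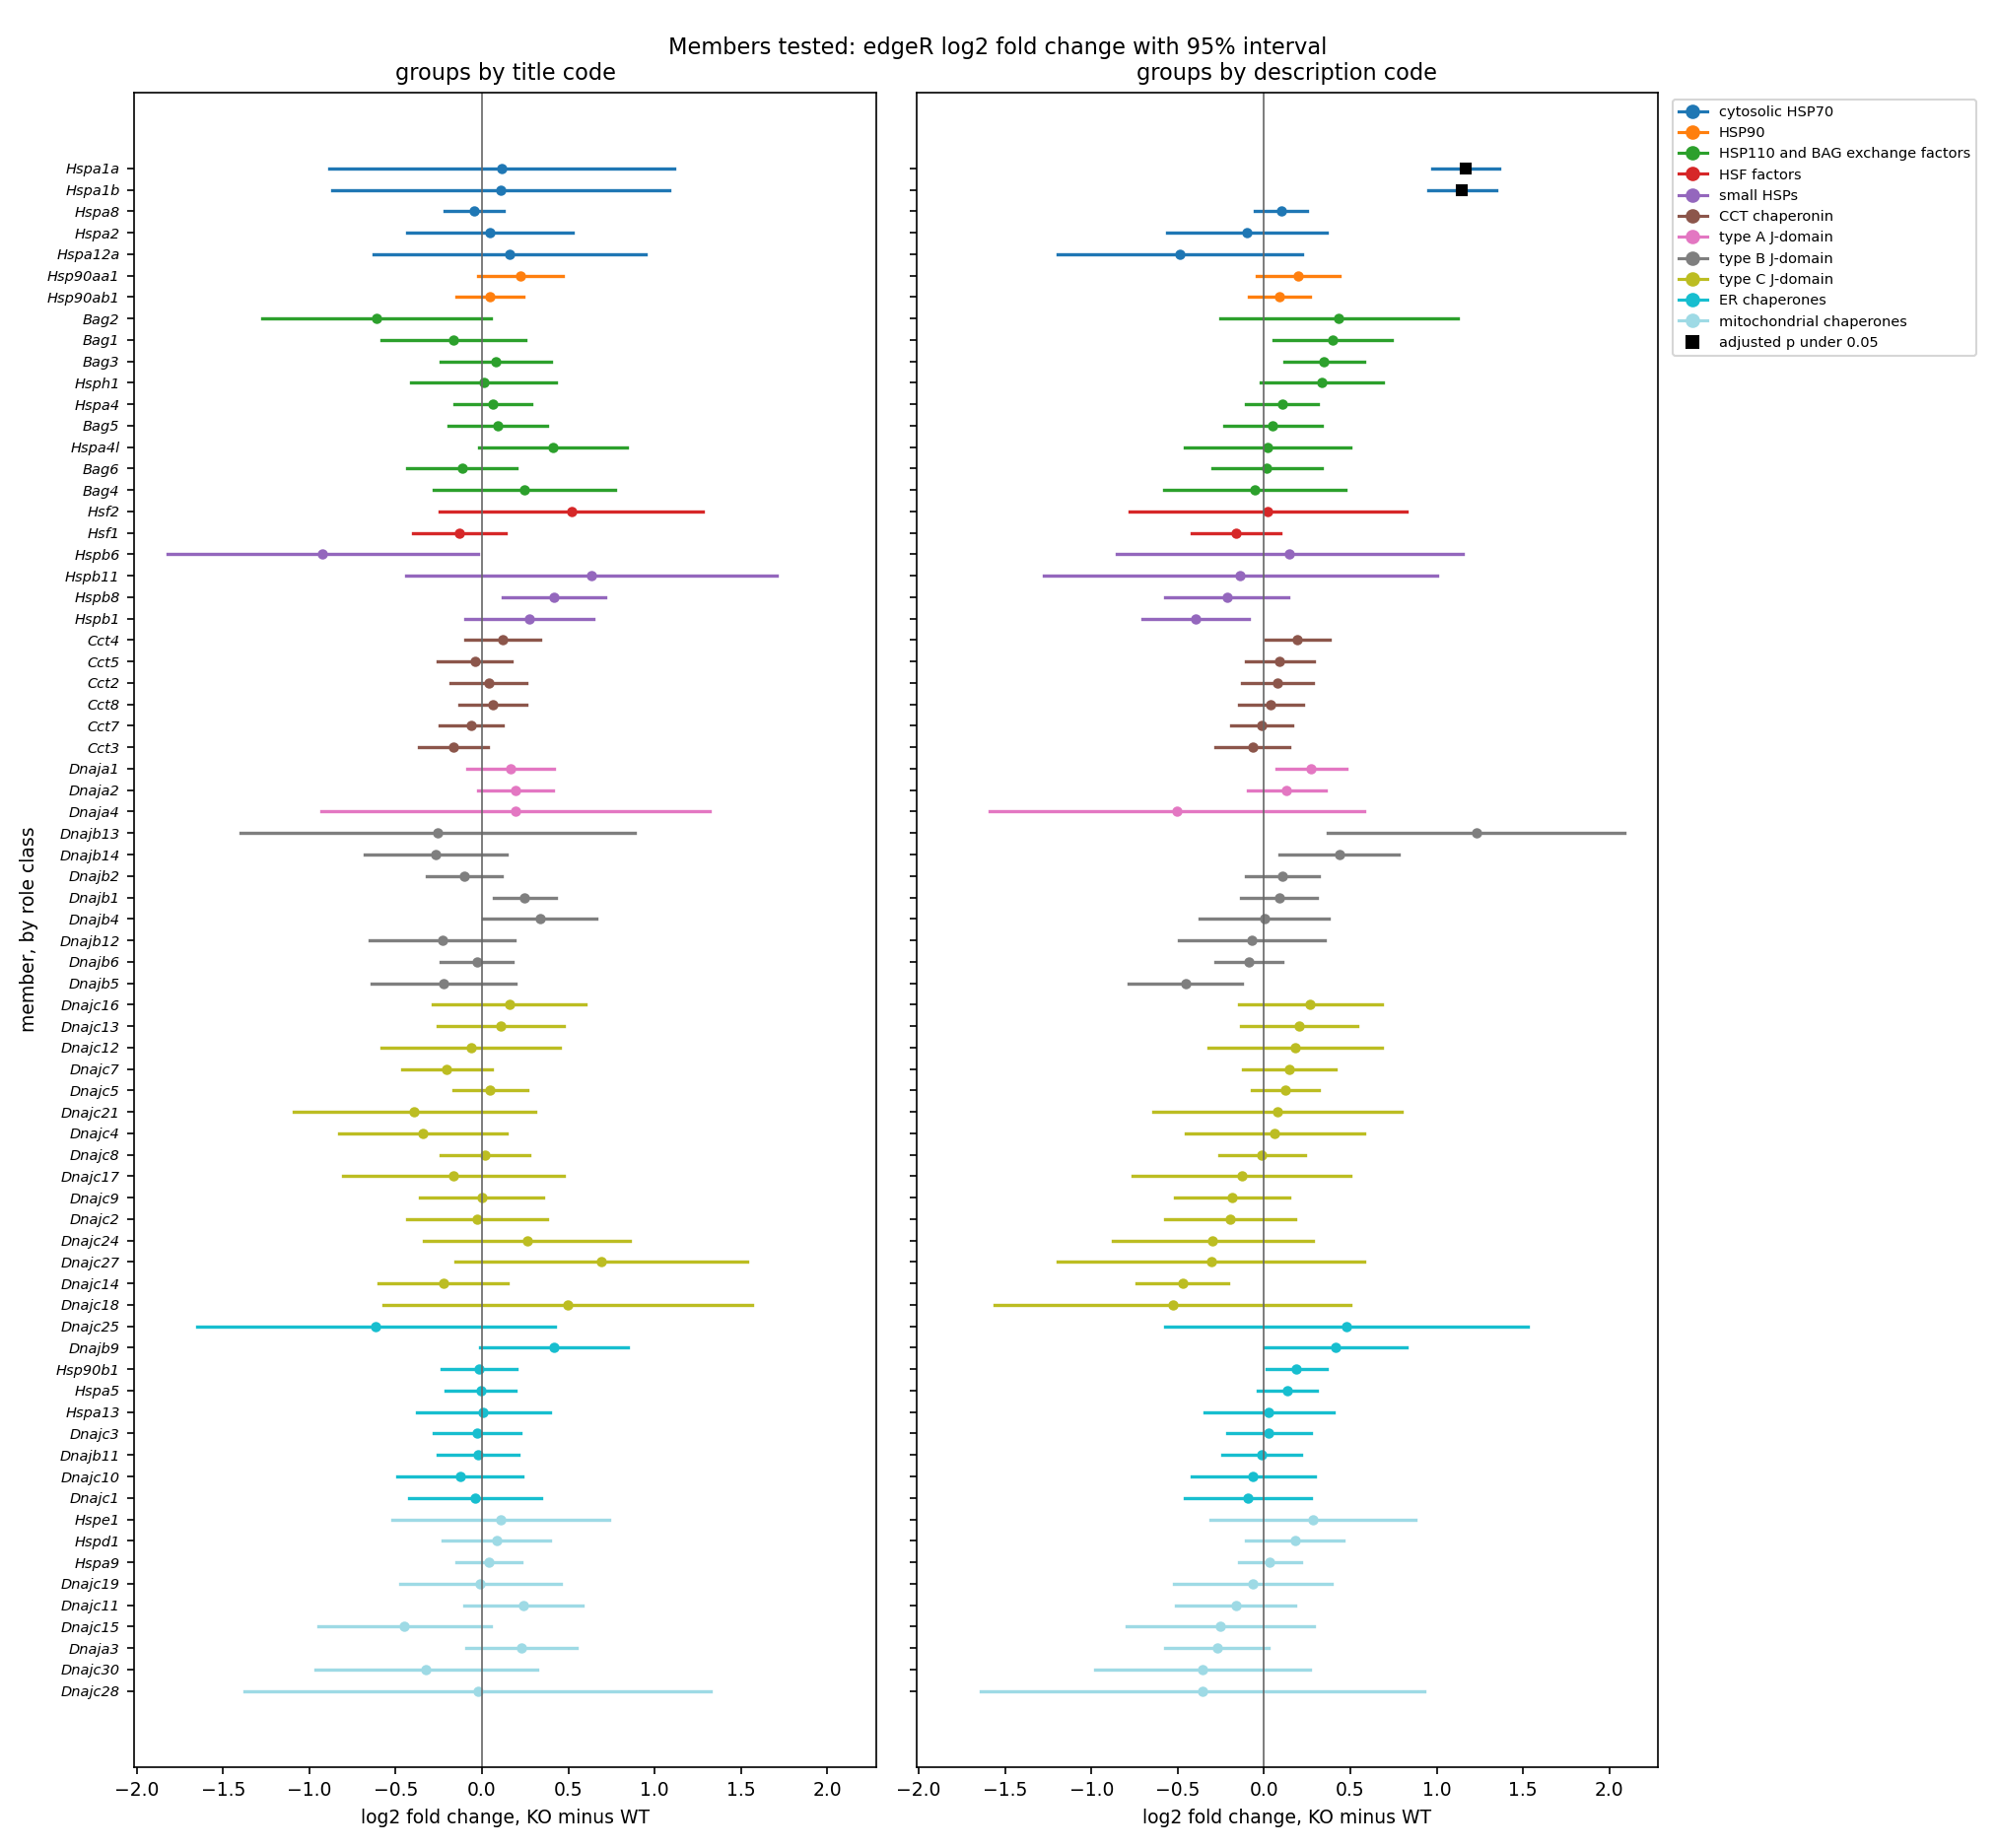
Log2 fold change, KO minus WT, with its 95% interval (x axis) for each tested member (rows, coloured by role class), with groups by title code (left) and by description code (right); black squares mark an adjusted p under 0.05. By description code Hspa1a and Hspa1b stand at 1.17 and 1.15, and 65 of the other 70 intervals end below 0.95.

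Genes outside the family but of the same pathways were read from lists. Of 48 tested cochaperones, folding enzymes and stress genes that are not members, 2 were called by description code, both lower in KO: Herpud1, a gene of the unfolded protein response, at -0.42 ± 0.07 (SE, edgeR adjusted p = 0.00935), and Fkbp5, an HSP90 cochaperone, at -0.66 ± 0.13 (adjusted p = 0.0174). By description code 2.02% of all genes tested were called, so a count of 2 among 48 is small. None of the 48 was called in the undisputed libraries (0.794% of all genes) or by title code (0%). Of 20 immediate early genes, which cell isolation is known to induce, 5 were lower in KO by description code: Nr4a1 (-0.80 ± 0.09, adjusted p = 0.000288), Fos (-0.47 ± 0.07), Btg2 (-0.50 ± 0.07), Zfp36 (-0.44 ± 0.07) and Junb (-0.47 ± 0.09). None of the 20 was higher, and the share of all genes called by that code was 2.02%. In the undisputed libraries Nr4a1 was the single call (-0.64 ± 0.13, adjusted p = 0.0487), and by title code there was none.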

How the data were processed

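Bulk RNA was measured in 8 libraries of sorted Langerhans cells. The authors deposited raw counts of reads per gene, with no normalization that the values show. The submitters' processing notes name STAR (2.5.2b), featureCounts (1.5.0) and the build GRCm38 (mm10). The annotation release, strand setting and treatment of read pairs are not given in the sources used here. Among counts from 1 to 20, 60.1% were even, so mates may have been counted separately.

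Ensembl identifiers were matched to symbols (25080 of 25247; 167 unmatched) and to a GENCODE annotation of GRCm38, and 0 columns were left unused. CPM is the count scaled to the column total. RPKM divides it by the union exon length in kilobases. All genes were fitted in R 4.3.3 by edgeR 4.0.16 as KO minus WT, after filterByExpr and TMM scaling, with robust quasi-likelihood F-tests and Benjamini-Hochberg adjustment over all genes tested and a threshold of 0.05. Intervals of fold changes are at 95%. The fit was tested on simulated data. Alternatives were RLE factors, no filter, a 1 CPM filter, DESeq2 1.42.0, limma 3.58.1 voom, each library left out, the replicate block, and code blocks as covariate or alone. Fits without RMN030 and RMN031 by title code, and without mitochondrial, haemoglobin and T cell genes, were added after the data were seen. The 16 members with no promoter entry are named without sequence. Nothing in the labels ties a library to its own animal, and p-values here reflect differences among libraries that may be technical. All 28 pairs of libraries differed beyond counting noise (chi-square per gene at least 11.7).

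The members and lists were chosen with earlier results of these data known. Members named with values were those past the threshold, the heat shock response list, the 10 of highest mean CPM, and in each role class the member with the smallest p in each genotype comparison; of the other lists, up to 6 genes past the threshold. Hspa2, Hspa1l, Cct6a, Gm20481 and genes listed beside a small count were named after their values were seen. Exons of 30 members overlap those of another gene, and their counts are less certain.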

Additional observations from a re-analysis of the deposited data

Results flagged for a closer look

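In groups of 4 libraries, 6 of 132 groups examined had 1 library far from the other 3 (gap over range above Dixon's 95% critical value), beside the 6.6 that chance gives at 1 in 20. Dnajc27 stood at 10.3 CPM in RMN031, against 3.09 to 3.51 in the other WT libraries by title code. Hspa8 stood at 3984 CPM in RMN030, against 3657 to 3710 in the other WT libraries by description code. Hspb6 stood at 9.05 CPM in RMN031, against 3.82 to 4.66 in the other WT libraries by description code. Hspd1 stood at 61.6 CPM in RMN030 under both readings, against 92.9 to 97.2 in the other WT libraries by title code and 91.7 to 93.5 by description code. Hsph1 stood at 39.8 CPM in RMN038, against 25.6 to 27.9 in the other KO libraries by title code.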

How the results depend on the processing

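The call of Hspa1a and Hspa1b held in the undisputed libraries and by description code under every alternative run, and 0 members were called by title code, or for its difference between code blocks, under any. With at least 2 libraries in each group, other members crossed the threshold only as follows. In the undisputed libraries 4 members were called with no filter and 4 with DESeq2 (Dnajb9 higher and Dnajc14 lower besides the pair). By description code DESeq2 called 4 (Bag3 higher and Dnajc14 lower besides the pair). Leaving out 1 library gave 2 to 6 calls in the undisputed libraries, and without RMN031 the 6 added Dnajb9, Dnaja1, Hsp90aa1 and Cct4. Without RMN038 there were 3 (Hspb6 lower) and without RMN039 there were 3 (Dnajb9 higher). By description code it gave 2 to 3, and without RMN032 the third was Dnajc14. A group left with 1 library is taken to vary as the other does. The log2 ratio of the pair sum ranged from 1.09 to 1.25 in the undisputed libraries when 1 library was left out, and its sign by title code changed without RMN030, RMN031, RMN038 or RMN039 (-0.03, -0.06, -0.11 and -0.11). Of 1728 single-member values, 54 moved by more than their error, 13 passed the threshold only under an alternative and 0 reversed a call. With the replicate number as a block, 0 members were called by title code and 2 by description code. Same-numbered libraries correlated at 0.05 to 0.10 by title code and -0.01 to 0.03 by description code, so the numbers were not taken to pair them. Members under about 10 CPM have wide intervals at this depth.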
